A study of Mus musculus with 6 samples.

Results

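The 80 genes described here were higher in C2C12 cells carrying a hairpin labelled as aimed at Pkm1 and lower in cells carrying one labelled as aimed at Pkm2. They were chosen from the 17558 genes of the deposited table by their level in TPM, a unit that scales reads to transcript length and library size. For each gene the mean TPM of a group plus 1 was divided by the same value of the control group. A gene belonged to the group when the log2 ratio was at least 0.585 (1.5-fold) with the Pkm1 hairpin and the fall was at least as large with the Pkm2 hairpin. The rule met 81 genes, of which Cilp, a matrix protein of cartilage, was left out by the rule. Abcg1, Slc2a3 and the protocadherin genes, which the rule also names as left out, did not meet both ratios. Since these ratios chose the members, their levels and ratios are a description with no test. The reverse pattern was met by 43 genes.

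C2C12 is an immortalized line of mouse myoblasts, which stop dividing and fuse into multinucleated myotubes once growth serum is taken away. All cells were kept for 48 h in differentiation medium with horse serum and an insulin supplement, and each group stably carried 1 short hairpin RNA: a scrambled sequence (shScr, the control), a hairpin against Pkm1 or a hairpin against Pkm2. The labels give 2 libraries per group, and nothing in them says whether these came from separate cultures, so that p-values measure only the spread between libraries. Library totals lay between 18216896 and 19796036 estimated counts. The study set out to ask how hairpins against either isoform of pyruvate kinase change the RNA of differentiating myoblasts.

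Pkm encodes pyruvate kinase, the last enzyme of glycolysis, and alternative splicing makes either the constitutively active isoform Pkm1 of adult muscle or the regulated isoform Pkm2 of proliferating cells. The Pkm1 transcript stood at 546 and 589 TPM in shScr, 243 and 218 in shPkm1 and 254 and 254 in shPkm2. The Pkm2 transcript stood at 1073 and 1517 TPM in shScr, 1278 and 1380 in shPkm1 and 2700 and 2630 in shPkm2. The Pkm1 transcript was thus lower in all 4 hairpin libraries. The targeted isoform was lower in both shPkm1 libraries and not lower in the libraries labelled shPkm2, and every direction given for shPkm2 refers to the libraries so labelled.

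Many of the members are parts of the extracellular matrix or act on it. Fibrillar collagens form triple helices of several chains, small leucine-rich proteoglycans bind the fibrils and set their width, and metalloproteinases and lysyl oxidases cut or cross-link them. Myoblasts and the connective tissue cells around them both make matrix, and a muscle fibre is wrapped in a basement membrane of laminins and collagens. Other members belong to the response to amino acid shortage, to sodium and calcium transport, and to lipid and steroid metabolism.

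In 77 of the 80 members, both shPkm1 libraries lay above both shScr libraries and both of these above both shPkm2 libraries, a pattern shown by 3.43% of all 17558 genes. The rule fixes most of that pattern, so nothing is read from the count. The exceptions were Igfbp3 and 2 near-identical gene models without a name of their own, LOC100862456 and LOC102641086. Those 2 carried identical values, at 2.23 and 0 TPM in shScr, 0 and 5.1 in shPkm1 and 0 and 0 in shPkm2, and count as uncertain because reads of such copies cannot be told apart. The median member stood at 9.08 TPM in the control, at 30.6 with the Pkm1 hairpin and at 2.93 with the hairpin labelled shPkm2. As TPM ratios the rise was the larger in 53 members and the fall in 27, a split that turned to 24 and 54 on edgeR's TMM scale, where 78 members were measured. At least 2-fold ratios were found in 51 members for the rise, in 39 for the fall and in 23 for both. A level below 5 TPM in shScr was found for 30 members, where adding 1 understates the ratio.

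**Figure D1:**
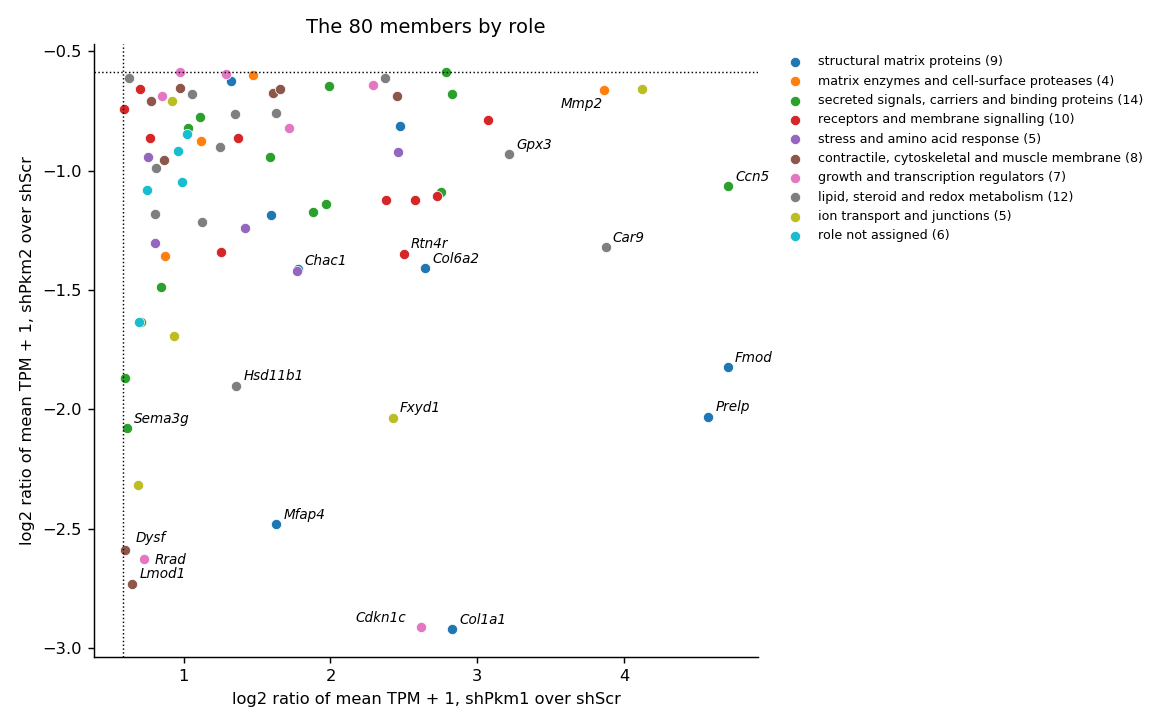
Log2 ratio of mean TPM + 1 to shScr in shPkm1 (horizontal) against that in shPkm2 (vertical) for the 80 members, coloured by role, with dotted lines at a rise and a fall of 0.585. Matrix proteins reach far in both directions (Col1a1 at 2.83 and -2.92), while Mmp2 lies far to the right close to the threshold of shPkm2 and Lmod1, Dysf and Rrad far down close to the other.

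Close to the threshold of shPkm1, the ratio was 0.59 for Pmepa1 and 0.60 for Dysf and for Ntn4 inside, and 0.57 for Nme5, 0.57 for H2-Ke6 and 0.56 for Gadd45g outside. At the threshold of shPkm2 it was -0.59 for Junb, -0.59 for Igfbp4 and -0.60 for Zfp36l1 inside, and -0.58 for Mmp12, -0.57 for Adamts2 and -0.57 for Fam43a outside. The limit therefore divides genes whose ratios differ by about the second decimal. Leaving out 1 library at a time kept 59 to 77 of the 80 members, and 49 were kept in each of the 6 leave-outs.

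The TPM scale itself was shifted between groups. Over the 12643 genes with enough counts, the median log2 ratio was 0.31 in shPkm1 and 0.36 in shPkm2, so that a 1.5-fold rise was common (23.7% of all genes in shPkm1) and a 1.5-fold fall was not (7.98% in shPkm2). With edgeR's quasi-likelihood test on estimated counts with TMM scaling, which removes such a shift and puts the median gene near 0, 78 members had enough counts. Of these, 69 were called higher in shPkm1 at an adjusted p under 0.05 (31.8% of all genes tested were; 63.1% in either direction). All 78 were called lower in shPkm2 against shScr (34.2% of all genes; 68.0% in either direction) and lower in shPkm2 than in shPkm1 (27.3%). Both calls together held for 69 members and for 371 of all tested genes (2.93%). The 9 members not called higher in shPkm1 were Angpt4, Dysf, Il12a, Lmod1, Ntn4, Pmepa1, Rtl3, Sema3g and Sh2d4a. The median log2 fold change of the members on this scale was 1.22 in shPkm1 and -1.87 in shPkm2, against 1.35 and -0.97 as TPM ratios. Across all genes the test called 4018 higher and 3966 lower in shPkm1, a split that became 5116 and 2656 when counts were scaled by library totals alone. In shPkm2 it called 4283 higher and 4319 lower, which became 6095 and 2702. These tests rest on the contrasts that chose the members and support nothing about them.

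Structural matrix proteins made up 9 members and had the highest summed level of all roles in shPkm1. Their summed level was 793 and 811 TPM in shScr, 5546 and 5554 in shPkm1 and 221 and 202 in shPkm2. Col1a1, which encodes the alpha 1 chain of type I collagen, had the largest smaller TPM ratio of all members. It stood at 359 and 362 TPM in shScr, 2585 and 2552 in shPkm1 and 50.5 and 43.2 in shPkm2. On counts scaled to the library total (CPM) this was 6.21-fold higher than shScr in shPkm1 and 8.44-fold lower in the libraries labelled shPkm2, with a 52.4-fold distance between the hairpin groups. By such CPM folds the order changes, since the smaller fold was 10.5 for Car9, 9.80 for Scara5 and 7.46 for Rtn4r, whose levels in shScr are low. For Col1a1 the libraries of a group lay close together.

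Fmod (fibromodulin) and Prelp are small leucine-rich proteoglycans that bind collagen fibrils, and their genes lie 107 kb apart on chromosome 1. Fmod stood at 19.7 and 16.2 TPM in shScr, 511 and 477 in shPkm1 and 4.8 and 3.93 in shPkm2. Prelp stood at 20.1 and 16 TPM in shScr, 464 and 440 in shPkm1 and 3.53 and 3.79 in shPkm2. Their levels were close to each other in each group, and both were over 100-fold higher in shPkm1 than in shPkm2 on CPM (108-fold for Fmod and 118-fold for Prelp). Decorin (Dcn), a proteoglycan of the same family, spanned less, at 16.6 ± 5.49 TPM in shScr (SD, n = 2), 43.1 ± 5.20 in shPkm1 and 10.4 ± 1.07 in shPkm2.

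Further chains of collagens were Col6a2, of the beaded filaments of type VI collagen, and Col5a3, of type V collagen, which takes part in starting fibrils. Col6a2 stood at 238 and 223 TPM in shScr, 1385 and 1505 in shPkm1 and 89.4 and 83 in shPkm2. Col5a3 stood at 42 and 42.6 TPM in shScr, 128 and 132 in shPkm1 and 19.1 and 17 in shPkm2. Neither gene overlapped between groups, a pattern that the rule mostly fixes. Postn encodes periostin, a matricellular protein, and stood at 88.5 and 119 TPM in shScr, 367 and 350 in shPkm1 and 40.1 and 36.6 in shPkm2. Mfap4, a protein of elastic microfibrils, stood at 5.98 and 4.53 TPM in shScr, 18.1 and 18.6 in shPkm1 and 0.06 and 0.18 in shPkm2. Its shPkm2 libraries held at most 3 counts each, so that it was at least 31.3-fold lower there than in shScr. Lama4, a laminin chain of basement membranes, went from 6.58 ± 0.566 TPM in shScr (SD, n = 2) to 41.2 ± 0.651 in shPkm1 and 3.32 ± 0.608 in shPkm2.

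**Figure D2:**
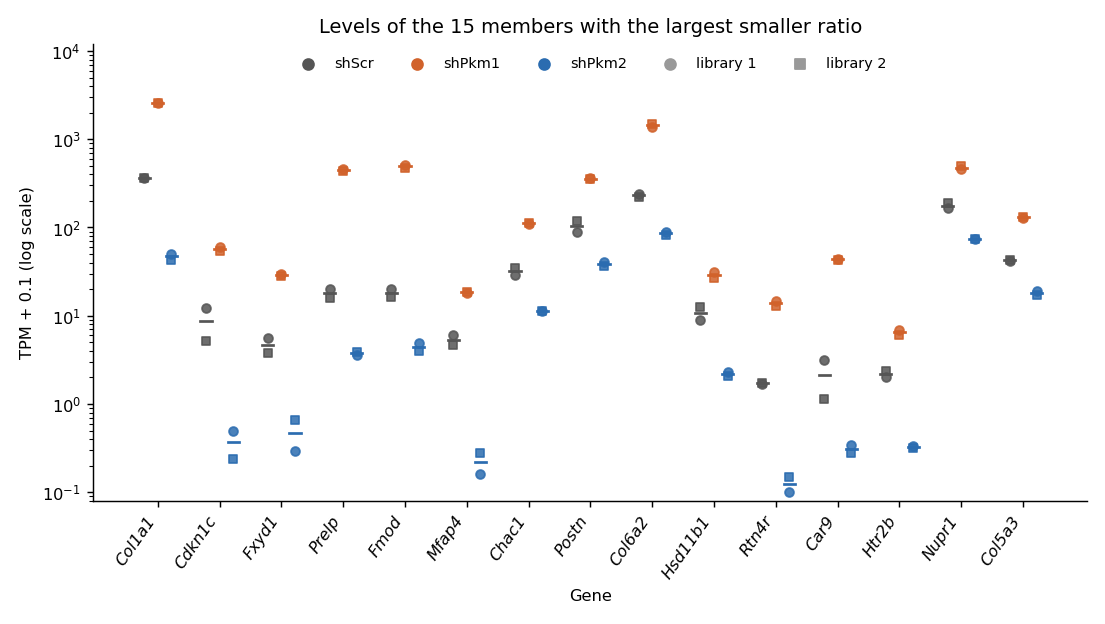
TPM + 0.1 on a log axis in each library for the 15 members with the largest smaller ratio, with short lines at group means. For each of the 15 genes the shPkm1 libraries are above and the shPkm2 libraries below the shScr libraries, and Col1a1 runs from about 2585 TPM in shPkm1 to 43.2 in shPkm2.

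The partner chains of these collagens were not members. Col1a2, which joins Col1a1 in type I collagen, stood at 254 and 312 TPM in shScr, 1901 and 1804 in shPkm1 and 344 and 308 in shPkm2. In edgeR's quasi-likelihood test against shScr, it was higher by 2.32 ± 0.13 (SE) on the log2 scale in shPkm1 (adjusted p = 1.2e-08) and its log2 fold change in shPkm2 was -0.25 ± 0.12 (adjusted p = 0.0922). Col1a1 thus stood above Col1a2 in both shScr and both shPkm1 libraries and below it in both libraries labelled shPkm2, as levels in TPM. Col6a1, the partner of Col6a2, stood at 315 and 335 TPM in shScr, 1764 and 1800 in shPkm1 and 237 and 218 in shPkm2. Its log2 fold change by the same edgeR test was 2.06 ± 0.12 (SE) in shPkm1 (adjusted p = 2.2e-08) and -0.97 ± 0.12 in shPkm2 (adjusted p = 1.0e-05). For Col6a3 the shPkm2 value was -0.44 ± 0.11 (SE, edgeR adjusted p = 0.0041), for Col5a1 -0.57 ± 0.13 (edgeR adjusted p = 0.0013) and for Col5a2 0.13 ± 0.14 (edgeR adjusted p = 0.41). These genes are in a list of 78 matrix protein genes and were named after their values were seen.

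In that list, 67 genes were tested and 8 were members. Over all 67, 60 were called higher and 3 lower in shPkm1, and 22 higher and 27 lower in shPkm2. Of the 59 tested genes that were not members, 52 were called higher and 3 lower in shPkm1, with a median log2 fold change of 1.65. In shPkm2, 22 of them were called higher and 19 lower, with a median of 0.08. In both contrasts the median over all genes was near 0. The rule takes out listed genes that fell in shPkm2, so the counts without the members lean away from a fall.

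**Figure D3:**
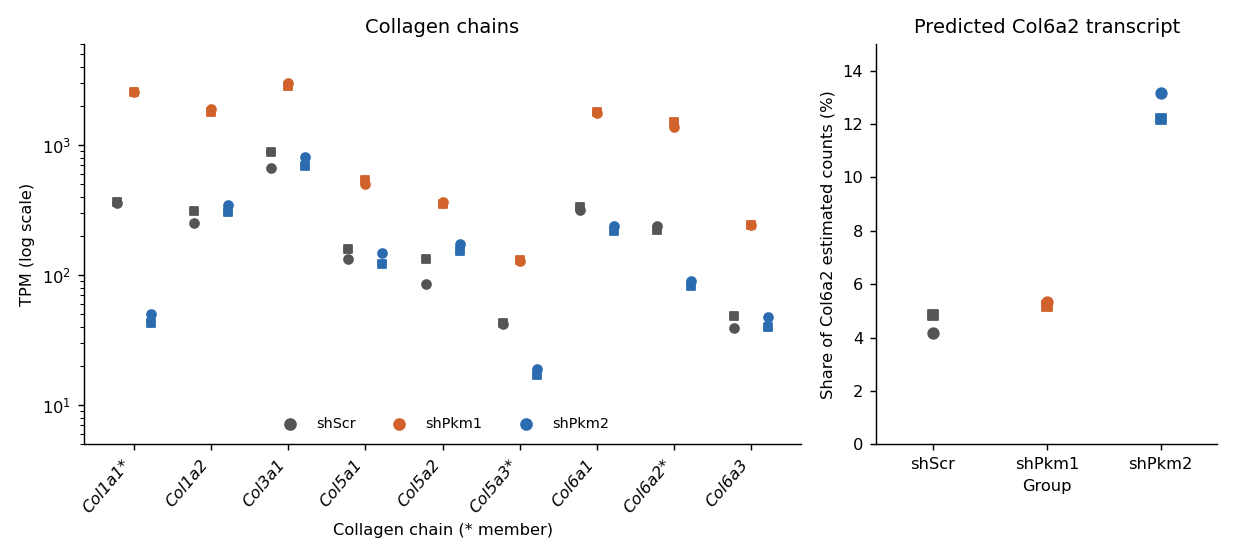
Left, TPM on a log axis in each library for 9 collagen chains, members marked by an asterisk; right, share of the estimated counts of Col6a2 assigned to a predicted transcript. Col1a1, Col5a3 and Col6a2 lie below the shScr libraries in shPkm2 while Col1a2 is at 344 and 308 TPM, and the predicted Col6a2 transcript holds 13.1% and 12.2% there.

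Matrix enzymes and cell-surface proteases made up 4 members. Mmp2, a gelatinase, stood at 35.6 and 51.1 TPM in shScr, 653 and 637 in shPkm1 and 27.7 and 26.4 in shPkm2. Its rise of 13.0-fold on CPM was much larger than its fall of 1.75-fold. Loxl1, which cross-links elastin, stood at 78.2 and 96.6 TPM in shScr, 236 and 253 in shPkm1 and 60.3 and 54.2 in shPkm2. Adamts5, which cleaves aggrecan, had means of 4.14 ± 0.198, 10.2 ± 0.933 and 1.80 ± 0.0424 TPM in shScr, shPkm1 and shPkm2 (SD, n = 2). Adam12, a cell-surface metalloproteinase of fusing myoblasts, went from 11.8 TPM in shScr to 22.5 in shPkm1 and 4.02 in shPkm2. In the list of 54 matrix-modifying genes, which held the first 3 of these, 46 other genes were tested. In shPkm1, 30 of those were called higher and 11 lower, and in shPkm2, 16 higher and 20 lower.

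Secreted signals, carriers and binding proteins made up 14 members, with summed levels of 97.5 and 150 TPM in shScr, 726 and 751 in shPkm1 and 49.3 and 41.3 in shPkm2. Ccn5, a matricellular protein of the CCN family linked to Wnt signalling, had the largest rise of all members as a TPM ratio. It stood at 11 and 12.5 TPM in shScr, 321 and 343 in shPkm1 and 5.71 and 4.47 in shPkm2. Both insulin-like growth factor binding proteins in the group, Igfbp3 and Igfbp4, showed rises far larger than their falls. Igfbp3 stood at 5.47 and 12 TPM in shScr, 70.5 and 65.2 in shPkm1 and 5.86 and 4.28 in shPkm2, so that one shPkm2 library lay above one shScr library. Igfbp4 went from a mean of 3.79 TPM in shScr to 32.1 in shPkm1 and 2.19 in shPkm2.

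Fstl3, which binds activin and myostatin, stood at 21.6 and 25 TPM in shScr, 98.5 and 89.4 in shPkm1 and 11.3 and 8.77 in shPkm2. The complement component C3 stood at 15.1 and 34.5 TPM in shScr, 91.7 and 96.2 in shPkm1 and 11 and 9.86 in shPkm2. Angpt4, a ligand of the Tie2 receptor, stood at 15.1 and 35.9 TPM in shScr, 40.3 and 44.2 in shPkm1 and 8.57 and 6.49 in shPkm2. For C3 and Angpt4 the shScr libraries differed from each other by over 2-fold, and without shScr library 1 the log2 fold change of Angpt4 in shPkm1 (edgeR, TMM) turned to -0.060. The guidance cue Ntn4 (netrin 4) had means of 8.20, 12.9 and 1.52 TPM in shScr, shPkm1 and shPkm2, and Sema3g (a class 3 semaphorin) had 5.88, 9.54 and 0.63. In both guidance cues the fall was the larger ratio, at -1.87 for Ntn4 and -2.08 for Sema3g. Il12a, the p35 subunit of interleukin 12, was of the same kind, at means of 3.81, 7.64 and 0.715 TPM.

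A ligand and its receptor were both members: Rarres2, which encodes chemerin, and Cmklr1, a chemerin receptor. Rarres2 stood at 1.82 and 2.79 TPM in shScr, 5.85 and 6.43 in shPkm1 and 0.72 and 1.14 in shPkm2. Cmklr1 stood at 11.8 and 9.3 TPM in shScr, 71.3 and 64.3 in shPkm1 and 4.03 and 4.59 in shPkm2. The remaining secreted members were low in shScr, with means of 0.65 TPM for Ecrg4, 0.925 for Sectm1a, 1.16 for Fgfbp1 (which frees fibroblast growth factors from matrix) and 3.00 for C1qtnf5. They reached 5.55, 2.92, 5.48 and 26.0 TPM in shPkm1.

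Receptors and membrane signalling proteins made up 10 members. Rtn4r, the Nogo receptor, stood at 1.58 and 1.64 TPM in shScr, 14.6 and 12.9 in shPkm1 and 0 and 0.05 in shPkm2. Scara5, a ferritin receptor, had means of 1.21 TPM in shScr, 13.6 in shPkm1 and 0.025 in shPkm2. Both were at or under 3 counts in each library labelled shPkm2, at least 11.9-fold lower than shScr for Rtn4r and at least 18.5-fold for Scara5. Htr2b, a serotonin receptor, stood at 1.91 and 2.29 TPM in shScr, 6.81 and 5.95 in shPkm1 and 0.23 and 0.22 in shPkm2. Gfra2, a co-receptor for neurturin, had the largest rise of this role, from a mean of 1.59 TPM to 20.9, beside 0.505 in shPkm2. The receptor phosphatase Ptprf went from 3.97 TPM to 24.8 and 1.28.

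Lrrc32, which holds latent Tgf-beta at the cell surface, had means of 2.37, 7.71 and 0.85 TPM in shScr, shPkm1 and shPkm2. Pmepa1, a Tgf-beta target that dampens its receptor signalling, was the most abundant of these proteins in shScr, at 150 ± 4.55 TPM (SD, n = 2), with 227 ± 6.25 in shPkm1 and 89.1 ± 3.62 in shPkm2. Ephb3, a receptor for ephrin-B ligands, had 34.5, 56.8 and 21.5 TPM, and Grk5, a kinase of G protein-coupled receptors, 10.8, 19 and 5.46. Among the listed Tgf-beta and Bmp genes, 40 that were not members were tested: 25 were called higher and 4 lower in shPkm1, and 21 higher and 9 lower in shPkm2.

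The response to amino acid shortage and to stress of the endoplasmic reticulum was represented by 5 members. Chac1, which breaks down glutathione, stood at 29.1 and 34.4 TPM in shScr, 110 and 112 in shPkm1 and 11.2 and 11.3 in shPkm2. Trib3, a pseudokinase, stood at 10.9 and 11.2 TPM in shScr, 63.4 and 66.7 in shPkm1 and 5.3 and 5.4 in shPkm2. Nupr1, a small stress-induced nuclear protein, stood at 164 and 189 TPM in shScr, 454 and 493 in shPkm1 and 74.7 and 73.7 in shPkm2. Within each group the libraries were close to each other. Slc7a5, which imports leucine and other large amino acids, stood at 74.5 and 80.5 TPM in shScr, 133 and 131 in shPkm1 and 43 and 36.8 in shPkm2. Herpud1, part of the machinery that clears misfolded proteins from the endoplasmic reticulum, stood at 121 and 123 TPM in shScr, 213 and 213 in shPkm1 and 50.1 and 47.3 in shPkm2. As TPM ratios the rise was the larger in 3 of these genes and the fall in 2, and on edgeR's TMM scale in 1 and 4.

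Genes of this response are known to carry a composite element for C/EBP and Atf proteins in their promoters, with the letters TGATGNAAN. In the RefSeq promoter table (GRCm38.p6, 250 bases before each gene start searched on both strands), 51 of the 80 members were found. The element's letters were in 4 of them (7.84%), namely Apoe, Chac1, Herpud1 and Nupr1, and in 3.89% of all 27025 genes of the table. The rule gives all members, Apoe included, the same directions. Of the 4, the 3 that belong to the stress role are shown, each read on the strand of its gene with the match in capitals. On this strand the match reads as the reverse complement of the letters above. The stretches lie at chr2:119351018-119351086 (plus strand) for Chac1, chr8:94386286-94386354 (plus strand) for Herpud1 and chr7:126625543-126625611 (minus strand) for Nupr1.
Chac1: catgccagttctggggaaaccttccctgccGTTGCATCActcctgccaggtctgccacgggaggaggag
Herpud1: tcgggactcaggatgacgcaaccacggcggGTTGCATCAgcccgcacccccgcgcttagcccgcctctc
Nupr1: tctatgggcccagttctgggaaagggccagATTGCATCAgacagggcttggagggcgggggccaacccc
The match starts 194 bases before the gene start in Chac1, 113 in Herpud1 and 111 in Nupr1. Trib3 is in the table without a match, and Slc7a5 was not found in it. A match of letters is a description and does not show binding. Of the other motifs searched on both strands, the E-box CAGCTG was in 27.5% of the 51 member promoters and in 14.7% of all. The AP-1 letters TGANTCA were in 7.84% and 7.82%, the hypoxia core ACGTG in 19.6% and 18.5%, the TATA letters TATAAA in 13.7% and 14.3%, and the CArG box in 1.96% and 1.62%.

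A list of 34 target genes of Atf4, the transcription factor of the amino acid response, was written after the members were known and includes Chac1, Nupr1, Slc7a5 and Trib3. Its 29 other tested genes had a median log2 fold change of 0.61 in shPkm1 and -0.48 in shPkm2 (edgeR, TMM), beside medians near 0 over all genes. As TPM ratios, 21 of its 30 other genes were at least 1.5-fold higher in shPkm1 and 1 lower. In shPkm2, 3 of the 30 were at least 1.5-fold lower and 5 higher. For 18 tested chaperone genes of the endoplasmic reticulum, listed at the same time, the medians were 0.27 and -0.08.

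Contractile, cytoskeletal and muscle membrane proteins made up 8 members. Tagln (transgelin, an actin-binding protein) stood at 122 and 113 TPM in shScr, 363 and 359 in shPkm1 and 69.5 and 77 in shPkm2. Myl9, a regulatory myosin light chain of smooth muscle and non-muscle cells, stood at 186 and 125 TPM in shScr, 282 and 287 in shPkm1 and 79.5 and 79.7 in shPkm2. For Dysf, which repairs tears of the muscle membrane, and for Lmod1, an actin nucleator, the fall dominated. Dysf stood at 11.5 and 8.52 TPM in shScr, 15.3 and 16.1 in shPkm1 and 0.91 and 0.76 in shPkm2. Lmod1 stood at 16.2 and 10.1 TPM in shScr, 19.7 and 22.8 in shPkm1 and 1.33 and 0.94 in shPkm2. When shScr library 2 was left out, the log2 fold change in shPkm1 (edgeR, TMM) turned to -0.012 for Dysf and -0.086 for Lmod1, and neither was called higher there with both libraries. Kif26b, a kinesin-like protein, went the other way, from a mean of 5.16 TPM in shScr to 32.8 in shPkm1 and 2.83 in shPkm2. Rflnb, a filamin-binding protein, had 12.2, 40.5 and 7.34 TPM, Drp2, a relative of dystrophin, 8.21, 14.8 and 4.63, and Ppp1r14c, an inhibitor of protein phosphatase 1, 5.35, 11.5 and 3.04.

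Levels of muscle genes moved on another course. None of 60 listed muscle differentiation genes was a member: of 59 tested, 58 were called lower in shPkm1 and 58 lower in shPkm2 (edgeR adjusted p under 0.05), with median log2 fold changes of -1.84 and -6.88. None of 40 cell cycle genes was a member either, with 30 called higher in shPkm1 and 40 in shPkm2. Of 28 tested interferon response genes, also without a member, 27 were called lower in shPkm1 and 28 in shPkm2. Summed over 6 myogenic markers, the level was 24899 and 19380 TPM in shScr, 10447 and 11205 in shPkm1 and 1022 and 957 in shPkm2. Summed over 7 fibroblast markers, which include the members Dcn and Col1a1, it was 1037 and 1272, 5631 and 5459, and 885 and 760, with the fibroblast markers Lum and Thy1 under 0.1 TPM in shScr. Col1a1 and Col3a1 held most of this sum, Col3a1 at 663 and 887, 2984 and 2854, and 815 and 696 TPM. Summed over 5 smooth muscle markers, which include the members Tagln and Lmod1, the level was 9479 and 7126, 5374 and 5613, and 2524 and 2552, with Myh11 under 0.1 TPM in every group. Acta2 held most of this sum, at 9338 and 6999 TPM in shScr, 4978 and 5219 in shPkm1 and 2447 and 2469 in shPkm2. Tagln, Lmod1 and Cnn1 were instead higher in shPkm1 than in shScr. Cnn1 stood at 2.8 and 3.26 TPM in shScr, 12.9 and 12.5 in shPkm1 and 6.57 and 5.52 in shPkm2. Markers of cells not meant to be present summed to at most 4.25 TPM for adipocytes, 0.41 for endothelial cells, 3.62 for white blood cells, 18.9 for osteoblasts, 36.8 for chondrocytes and 34.4 for neurons or glia. The share of the members' levels that goes with these markers was not tested, and in bulk RNA fewer cells of a type and less RNA per cell cannot be told apart.

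Growth and transcription regulators made up 7 members. Cdkn1c, the cyclin-dependent kinase inhibitor p57, had the second largest smaller TPM ratio of the group. It stood at 12 and 5.13 TPM in shScr, 60.5 and 54.6 in shPkm1 and 0.4 and 0.14 in shPkm2. The shScr libraries differed by over 2-fold, and the shPkm2 libraries held only 8 and 3 counts. Rrad, a small GTPase that restrains calcium channels, stood at 35.3 and 34.6 TPM in shScr, 54.3 and 62.8 in shPkm1 and 4.46 and 5.2 in shPkm2. The AP-1 subunit Junb was the most abundant regulator, at 206 and 195 TPM in shScr, 369 and 423 in shPkm1 and 138 and 129 in shPkm2. Mdfi, an inhibitor of myogenic transcription factors, went from a mean of 1.11 TPM to 9.33 in shPkm1 and 0.355 in shPkm2. Heyl, a target of Notch signalling, had 4.38, 16.7 and 2.05 TPM, Zfp36l1, which promotes decay of AU-rich mRNAs, 55, 136 and 36.1, and the adaptor Sh2d4a 1.12, 2.83 and 0.315.

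Lipid, steroid and redox metabolism was represented by 12 members, summing to 817 and 827 TPM in shScr, 1969 and 1886 in shPkm1 and 480 and 489 in shPkm2. Tecr, which catalyses the last step of very long chain fatty acid elongation, held most of this sum. It stood at 623 and 605 TPM in shScr, 1308 and 1244 in shPkm1 and 377 and 390 in shPkm2. Hsd11b1, which regenerates active glucocorticoid, stood at 8.85 and 12.3 TPM in shScr, 30.9 and 26.5 in shPkm1 and 2.22 and 1.99 in shPkm2. G0s2, an inhibitor of triglyceride lipase whose gene lies 8.1 kb from Hsd11b1 on chromosome 1, stood at 63.7 and 73.3 TPM in shScr, 211 and 216 in shPkm1 and 41.5 and 38.8 in shPkm2. In Hsd11b1 the fall was the larger TPM ratio (-1.90 against 1.36), and in G0s2 the rise (1.63 against -0.76).

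Car9, a carbonic anhydrase known as a hypoxia target, stood at 3.01 and 1.03 TPM in shScr, 43.8 and 42.8 in shPkm1 and 0.24 and 0.18 in shPkm2. Its shScr libraries differed by almost 3-fold from each other, at 70 and 23 counts, and its shPkm2 libraries held only 5 and 4 counts. Gpx3, a secreted glutathione peroxidase, went from a mean of 11.7 TPM in shScr to 117 in shPkm1 and 5.64 in shPkm2. Cyb5r1, a cytochrome b5 reductase, had 71.8 ± 0.212 TPM in shScr (SD, n = 2), 158 ± 1.40 in shPkm1 and 30.3 ± 0.424 in shPkm2. Apoe, the apolipoprotein E gene, stood at 3.19 and 6.8 TPM in shScr, 12.6 and 13.9 in shPkm1 and 2.02 and 2.4 in shPkm2. The lysolipid transporter Mfsd2a had means of 9.44, 17.2 and 3.60 TPM and the endothelial lipase Lipg 3.12, 6.21 and 1.07. Coq8b, of coenzyme Q synthesis, had 23.6, 37.0 and 15.1 TPM, and the carboxylesterase Ces2c 1.05, 4.22 and 0.21.

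Ion transport and junctions held 5 members, all at a mean of about 5 TPM or less in shScr. Fxyd1 (phospholemman), a regulator of sodium transport, stood at 5.52 and 3.7 TPM in shScr, 29.8 and 28.4 in shPkm1 and 0.19 and 0.55 in shPkm2. No library of one group overlapped those of another, which the rule mostly fixes, and the shPkm2 libraries held 1 and 3 counts. Atp2a3, a calcium pump of the endoplasmic reticulum, had means of 1.05, 2.88 and 0.255 TPM, and the synaptotagmin Syt8 2.44, 5.58 and 0.065. Of the other listed ion channels and pumps, 49 were tested: 16 were called higher and 23 lower in shPkm1, and 12 higher and 23 lower in shPkm2.

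No role was assigned to 6 members. Besides both LOC gene models, these were Shisa4 (95.2, 186 and 49.9 TPM in shScr, shPkm1 and shPkm2), Rtl3 (9.76, 16.4 and 2.47), Colca2 (1.22, 3.51 and 0.23) and Prss46 (1.45, 3.87 and 0.185). In all, 11 members had at most 3 counts in each library labelled shPkm2: Fxyd1, Mfap4, Rtn4r, Scara5, Prss46, Fgfbp1, Syt8, Sectm1a, Ecrg4 and both LOC models.

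**Figure D4:**
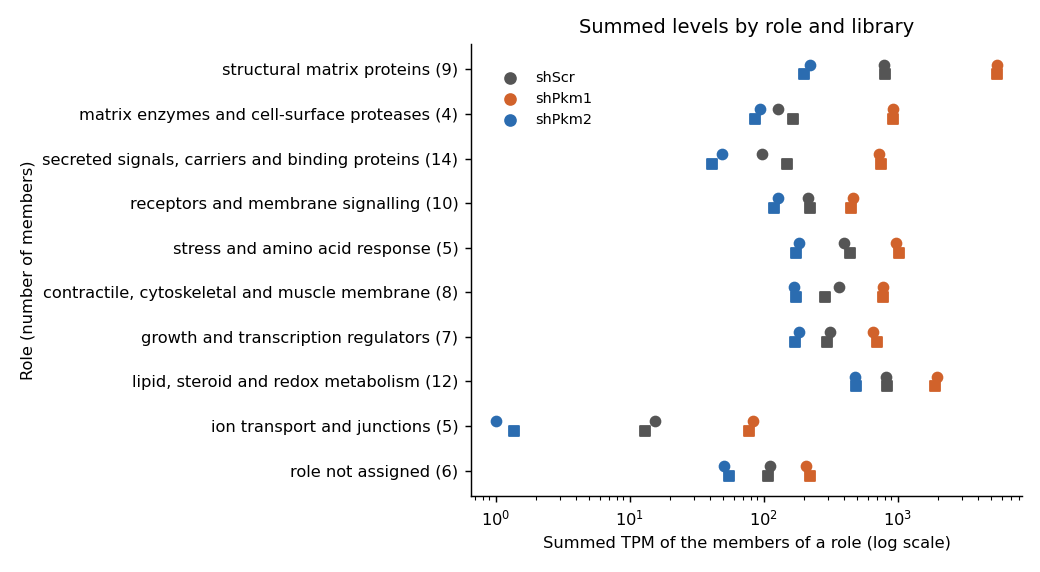
Summed TPM of the members of each role in each library on a log axis, circles for library 1 and squares for library 2. In each of the 10 roles both shPkm1 libraries are highest and both shPkm2 libraries lowest, and the matrix proteins span from 5546 and 5554 TPM to 221 and 202.

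The remaining pathway lists each held 1 to 3 members. Of 40 other tested Wnt genes, 23 were called higher and 10 lower in shPkm1, and 15 higher and 11 lower in shPkm2. Of 41 complement and innate immunity genes besides C3, 23 were called higher and 7 lower in shPkm1, and 12 higher and 17 lower in shPkm2. For lipid handling besides Apoe, 44 genes were tested, with 19 higher and 14 lower in shPkm1 and 14 higher and 16 lower in shPkm2. Among 51 axon guidance and Eph genes besides Ephb3, Ntn4 and Sema3g, 24 were called higher and 12 lower in shPkm1, and 27 higher and 12 lower in shPkm2. Among 48 receptor tyrosine kinase genes and growth factors besides Angpt4, 28 were called higher and 8 lower in shPkm1, and 23 higher and 12 lower in shPkm2.

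The balance between transcripts of a gene was not used by the rule, which sums over them, and was tested with edgeR's exon usage test applied to transcripts (quasi-likelihood F-test per gene). It could be run on 7704 genes with at least 2 measured transcripts, 39 of them members. The result depends on how the authors' program divided reads shared by the transcripts of a gene. In shPkm2 against shScr, 4 of the 39 members were called at an adjusted p under 0.05, where 6.70% of all tested genes were. In shPkm1 against shScr 1 member was called (3.88% of all genes), and in shPkm2 against shPkm1 2 were (3.92%). These shares are small counts near the background.

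Col6a2 had the smallest adjusted p among the members, 5.3e-04 in shPkm2 against shScr and 0.0025 in shPkm2 against shPkm1 (edgeR). The main transcript held 10347 and 9572 estimated counts in shScr, 49525 and 60039 in shPkm1 and 3234 and 3148 in shPkm2. A second, predicted transcript held 450 and 488, 2780 and 3278, and 490 and 437. In shPkm2 the estimated counts of the main transcript were thus lower than in shScr, while those of the predicted one overlapped those in shScr. As a share of the gene, the predicted transcript made up 4.17% and 4.85% in shScr, 5.31% and 5.18% in shPkm1 and 13.1% and 12.2% in shPkm2. The call in shPkm2 against shScr held under each alternative tried, and that in shPkm2 against shPkm1 was lost when shPkm2 library 1 was left out.

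Cyb5r1 was called in shPkm1 against shScr (edgeR adjusted p = 0.0342) and in shPkm2 against shScr (adjusted p = 0.0141). A second, predicted transcript without a coding frame held 2.31% and 1.49% of its counts in shScr, 11.6% and 7.71% in shPkm1 and 11.8% and 11.7% in shPkm2. Atp2a3 was called in shPkm2 against shScr (edgeR adjusted p = 0.0337) and in shPkm2 against shPkm1 (adjusted p = 0.0388), on 13 counts per shPkm2 library, all of them on 1 transcript. Pmepa1 was called in shPkm2 against shScr (edgeR adjusted p = 0.0440), with its minor transcript at 4.12% and 5.35% in shScr and 8.16% and 14.8% in shPkm2. The calls of these 3 genes were lost with Simes' method and when any single library was left out, except that Pmepa1 kept its call without shPkm2 library 1.

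Some members were neighbours in the genome (RefSeq positions on GRCm38.p6). Another member lay within 500 kb of 15 of the 80 members, or 18.8%, and a member lay that close to 7.14% of 17365 other genes. Both overlapping LOC models count there as neighbours of each other, and without them the shares were 16.7% (13 of 78) and 7.12%. Chromosome 1 held 11 members, 5 of them in a stretch of 1465 kb from Prelp to Shisa4 (chr1:133910304-135375298). In it Prelp and Fmod are 107 kb apart, Cyb5r1 follows 358 kb after Fmod, and Lmod1 and Shisa4 are 3 kb apart. The table lists 30 genes there. Of the 19 other tested genes, 3 had a TPM ratio at least 1.5-fold higher and 3 at least 1.5-fold lower in shPkm1, and 1 was higher and 6 were lower in shPkm2. Among them are Myog, a transcription factor of muscle differentiation, and Mybph, a myosin-binding protein, named after their values were seen. Myog stood at 2126 and 2051 TPM in shScr, 1430 and 1437 in shPkm1 and 67.2 and 73.5 in shPkm2. Its levels were lower than shScr in both hairpin groups, unlike those of Fmod and Prelp in the same stretch. The start of Myog lies 253 kb from that of Fmod, with other genes between them.

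**Figure D5:**
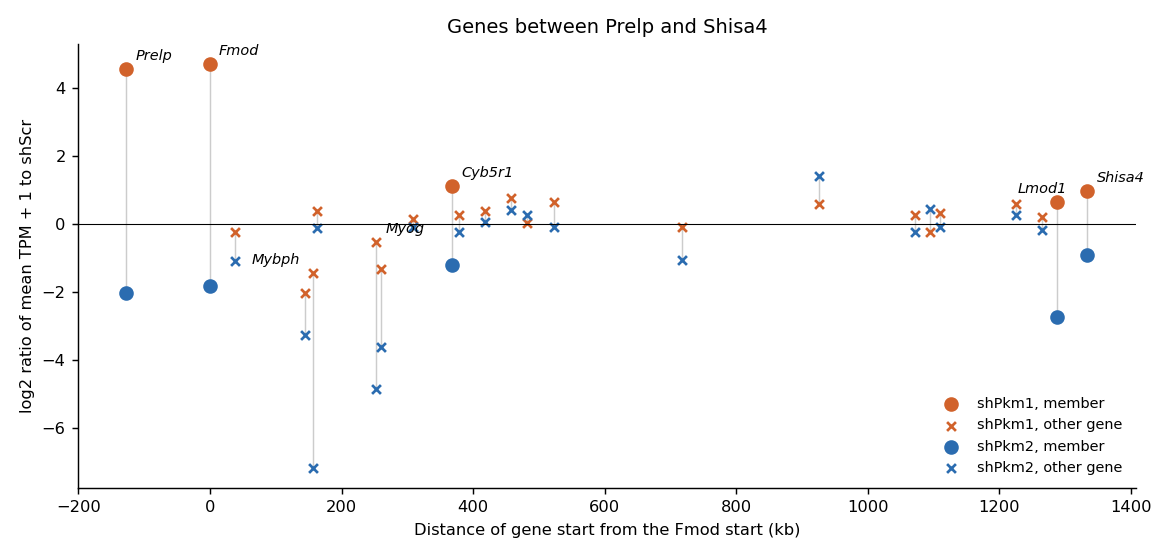
Log2 ratio of mean TPM + 1 to shScr for the 5 members (circles) and 19 other tested genes (crosses) between Prelp and Shisa4, against the distance of their start from that of Fmod in kb. Fmod and Prelp reach 4.71 and 4.57 in shPkm1, and other genes between members, such as Myog and Mybph, lie below 0 in both hairpin groups.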

How the data were processed

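RNA-seq of 6 libraries of C2C12 cells (3 groups of 2) was analysed from 1 deposited table with 57920 RefSeq transcripts. Per the file headers it gives the authors' estimated counts, FPKM and TPM for each transcript and library; TPM was the main level and the deposited FPKM an alternative. The submitters' processing notes name HISAT, StringTie, Bowtie, RSEM, DESeq2 and mm10, without roles. Strandedness is not given in the sources used here. A further 9 columns of group means were not used.

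Values were summed over the transcripts of a gene. Symbols came from the NCBI gene table and matched 17445 of 17558 genes. The members, lists and roles were chosen with earlier results of these data known, and roles and the Atf4 and chaperone lists were written after the members. Estimated counts were rounded and tested with edgeR 4.0.16 (R 4.3.3, filterByExpr minimum count 10 and total 15, TMM, quasi-likelihood F-test, 1 fit of all 6 libraries, Benjamini-Hochberg over 12643 genes, two-sided). Standard errors were derived from the F statistic. Transcript usage was tested with diffSpliceDGE on 33433 transcripts. Both scripts were tested on simulated data. An exact permutation of 2 against 2 libraries cannot give a p below 0.333, so none is given. Count folds use CPM on the library total; where both libraries of the lower group hold at most 3 counts, they are set against that floor of 3 counts per library and given as "at least". Floors cover counting error only.

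Named were the 15 members with the largest smaller ratio, the 12 highest in shPkm1, the 3 nearest each threshold on either side, all members in a fixed list and those with a transcript usage call; others are given by role with group means. Some members are not reported here by name. Alternatives changed the pseudocount (1), threshold, filter, unit, normalization, test, replicate block and single libraries. The replicate numbers did not pair the libraries: the correlations of same-numbered deviations between groups were -0.03, 0.04 and 0.05.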

Additional observations from a re-analysis of the deposited data

How the results depend on the processing

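The number of members depended on the settings of the rule. A pseudocount of 0.1 gave 211 genes and one of 5 gave 32, a log2 threshold of 1 gave 23, and asking every single library to pass gave 44. CPM with TMM factors gave 132 genes, of which 55 were members, and FPKM gave 66, of which 56 were. Leaving out single libraries gave 71 to 95 genes. Asking for a mean of 1 TPM kept 80. For the genes called by edgeR in each contrast, no alternative moved the count by over 1.5 times. Members called higher in shPkm1 ranged from 60 to 77 over the alternatives. In shPkm1 against shScr, leaving out single libraries gave log2 fold changes from -0.060 (without shScr library 1) to 1.01 for Angpt4, from -0.012 to 0.59 for Dysf and from -0.086 to 0.77 for Lmod1 (both lowest without shScr library 2); the cause was not tested.

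Counts of transcript usage calls (299, 516 and 302 genes for shPkm1 against shScr, shPkm2 against shScr and shPkm2 against shPkm1) were less stable. Simes' method gave 85, 205 and 111. A mean of at least 50 counts per transcript, which tests fewer genes, gave 195 for the first and 200 for the last. Leaving out single libraries gave 90 to 263, 221 to 396 and 110 to 254; shPkm2 library 1 alone took the Col6a2 call of the last contrast. With the replicate block, usage calls were 89, 254 and 90, and gene calls 7922, 8566 and 6682; since the numbers do not pair the libraries, the block is a check only. Genes with few counts limit precision: 30 members had a mean under 5 TPM in shScr.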
